A study of Rattus norvegicus with 26 samples.

Results

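The genes for cytosolic ribosomal proteins were examined in RNA from the dentate gyrus (DG), the hippocampal subregion of the granule cells. The members were the gene IDs whose symbol begins with Rpl or Rps followed by a digit, without the Rps6k kinases, and whose mean over all rats was at least 5 normalized counts. This rule gave 83 gene IDs of 17910 in the whole series, 48 with an Rpl symbol (large ribosomal subunit) and 35 with an Rps symbol (small subunit). They carry 76 distinct symbols, and 2 further matching IDs, for Rpl13 and Rpl35a, fell under the minimum. Of 73 standard ribosomal protein genes listed for this work, 64 have a member, and Rpl8, Rpl13, Rpl22, Rpl35a, Rpl38, Rps14, Rps19, Rps20 and Rps26 were not analysed here. The symbol Rps19bp1 matches the rule but names a protein that binds Rps19 and is no part of the ribosome. It was kept as the rule has it and is described apart.

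All 26 rats were F344 males of 6 months, with 1 library of polyA RNA from the DG of 1 hemisphere of each rat, so replicates are separate animals. The Veh group (n = 10) received the vehicle by gavage, and its rats belonged to another project. The Dox group (n = 8) received weekly injections of doxorubicin (Dox), an anthracycline used in chemotherapy, and the Dox + ABT group (n = 8) received the same doxorubicin and the senolytic ABT-263 (navitoclax), an inhibitor of Bcl-2 family proteins, by gavage. A group given ABT-263 without doxorubicin was not analysed here, so Dox + ABT differs from Veh by both agents. The values are counts of reads per gene, divided by the authors by a factor for each library, and are called normalized counts. The estimated depth ran from 10163364 to 24344302 reads per rat, and the median was 16700874 for the Veh rats, 15655046 for Dox rats and 15126866 for the rats given both agents.

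A ribosome is built from ribosomal RNAs and one copy of nearly every ribosomal protein, and the genes for these proteins are transcribed in step in growing cells. Their messenger RNAs carry a run of C and T (U in the RNA) at the 5′ end, the terminal oligopyrimidine (TOP) tract, through which the kinase mTOR and the RNA-binding protein Larp1 control their translation and stability. In neurons, ribosomes supply the new protein that lasting synaptic change needs. Several ribosomal proteins also act outside the ribosome, such as Rpl5 and Rpl11, which bind Mdm2 and thereby stabilize p53 when assembly fails.

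The sequence around the transcription start is shown for 10 members, since most members moved together from rat to rat and the tract is what their starts are known to share. The windows hold 15 bases on either side of the annotated start (RefSeq, build GRCr8, which is not the build of the reads). Capitals mark each run of 6 or more pyrimidines that touches the 10 bases around the start. The first 6 are the 3 members of each subunit that stood highest in the second of the 2 sets of libraries described further on relative to the first, among members with a sequence and a symbol of their own. The last 4 are those with the lowest signed difference, of which Rps6 was lower in the second set by 0.43 on the log2 scale and the other 3 differed by between -0.06 and 0.06.
Rpl27a (chr1:172974558-172974587, plus strand): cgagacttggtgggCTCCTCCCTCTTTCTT
Rpl9 (chr14:43247575-43247604, plus strand): gacgaaggacgTTCTCTCTTTgccccatct
Rpl37 (chr2:55942930-55942959, plus strand): tggtaggcgtaCTTTCTCTTCCggtctctt
Rps21 (chr3:187724023-187724052, plus strand): gaacgagccaCTTCCTTTCTgtgttctccg
Rps24 (chr16:96502-96531, plus strand): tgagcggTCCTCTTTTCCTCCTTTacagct
Rps15al4 (chr2:56165486-56165515, minus strand): gctgacgttaagattccgttctgtggctct
Rps18 (chr20:4933730-4933759, plus strand): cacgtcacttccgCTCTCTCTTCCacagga
Rps6 (chr5:106420526-106420555, minus strand): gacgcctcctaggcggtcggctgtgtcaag
Rpl7l1 (chr9:21695703-21695732, plus strand): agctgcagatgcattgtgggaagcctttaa
Rps19bp1 (chr7:113693009-113693038, minus strand): cagcgtgtgggcggggcttggcagcatgtc

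A promoter entry was found for 58 of the 76 member symbols, 59 entries in all. A run of 6 or more pyrimidines touched the start in 37 of the 59 entries (62.7%), against 18.7% of all 33469 promoters of the same table. The hexamer TTCCGG, the core of sites for ETS factors, was searched on both strands of the 300-base windows and may overlap the pyrimidine run. It stood in 28 of the members' entries (47.5%) and in 14.95% of all entries. These matches describe letters at annotated starts and were not tested against the expression values.

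The libraries of each group fell into 2 sets. Each log2 value was set against its group mean, for 13567 genes that are neither ribosomal protein genes nor mitochondrial, and the leading axis of these residuals held 27.8% of the variance within groups. Its scores left 16 libraries (4 Veh, 5 Dox and 7 Dox + ABT) on one side of a gap and 10 libraries (6 Veh, 3 Dox and 1 Dox + ABT) on the other, here called the first and the second set. This gap of 9.39 was the third largest between neighbouring scores, after 12.1 and 11.2, both of which lie next to Veh rats 10 and 11, and it was chosen after the data were seen. No batch is named in the labels. Mitochondrial genes took a median of 7.34% of the normalized counts in the first set and 13.1% in the second, the median depth was 15056300 and 18827700 reads, and the summed red cell markers had medians of 4910 and 17159 normalized counts. The summed microglial markers had medians of 3006 and 4396, with all 6 listed genes above 0 in every rat, the endothelial markers 1490 and 2143, the oligodendrocyte markers 54820 and 70426 and the meningeal markers 229 and 295. The granule cell markers had medians of 12206 and 13024 and the choroid plexus markers 88.4 and 73.7. Single granule cell markers differed in direction. Within groups, C1ql2 and Calb1 were higher in the second set than in the first, by 0.28 and 0.22 on the log2 scale. Plk5 (-1.04), Prox1 (-0.53), Dsp (-0.04) and Trpc6 (-0.02) were lower there. The granule cell markers were present in every group, with sums from 9921 to 14792 in Veh, 10412 to 14511 in Dox and 9935 to 13343 in Dox + ABT. Of those 7 markers, Lct was near absent, with a mean of 1.69. The choroid plexus markers summed to between 10.0 and 354 in all rats, and 5 of the 6 found were at 0 in some rat. In bulk tissue, fewer cells of a type and less RNA per cell cannot be told apart.

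Most ribosomal protein genes varied together from rat to rat. Each gene was set against its own mean over the 26 rats on the log2 scale, and the median of these deviations over the 83 genes was taken in each rat. In Veh this median ran from -0.91 (Veh rat 11) over 0.49 to 0.88 (Veh rat 2). In Dox it ran from -0.59 over -0.19 to 0.74, and in Dox + ABT from -0.41 over -0.34 to 0.21. The 3 groups overlapped, and the Veh rats covered the whole range. In Veh rat 2, 75 of the 83 genes lay above their own mean, and in Veh rat 11 only 7 did. The members' summed level ran from 90103 normalized counts in Veh rat 11 to 319382 in Veh rat 2, which is 0.573% and 1.90% of all normalized counts in those libraries.

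**Figure D1:**
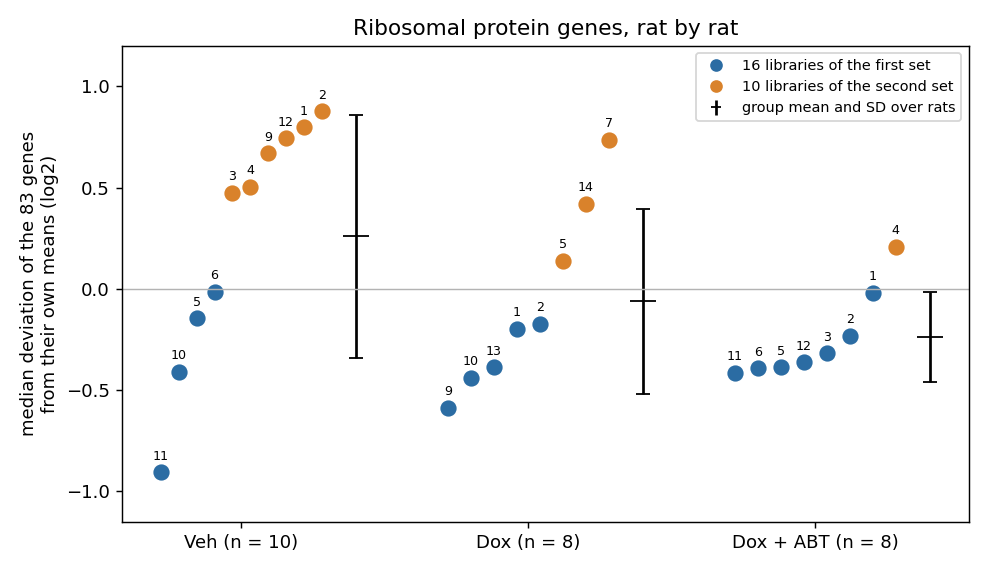
Each point is 1 rat, numbered as in its label, and the y axis gives the median log2 deviation of the 83 genes from their own means over all rats, with the group mean and SD (n = 10, 8 and 8) as a black bar. The 10 libraries of the second set (orange) lie between 0.14 and 0.88, above all 16 of the first set (blue), which lie between -0.91 and -0.015.

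The 10 highest rats by this median were the 10 libraries of the second set. Ribosomal protein genes did not enter the axis, but the cut on it was chosen after the data were seen, so this is no independent agreement. Within groups, the members were higher in the second set by a median of 0.85 on the log2 scale for Rpl and 0.95 for Rps symbols, against 0.0076 over all 15595 tested genes. The difference was over 0.5 for 69 of the 83 members and for 9.96% of all tested genes. In 25 members the 2 sets did not overlap at all, among them Rpl3, Rpl5, Rpl11, Rpl27a, Rps3 and Rps7, and the same held for 1.84% of all tested genes. Rpl27a ran from 778 to 1510 normalized counts in the first set and from 1994 to 3694 in the second. The sets were drawn from these libraries, so these differences are a description and were not tested. A single component held 56.5% of the variance of the members within groups.

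**Figure D2:**
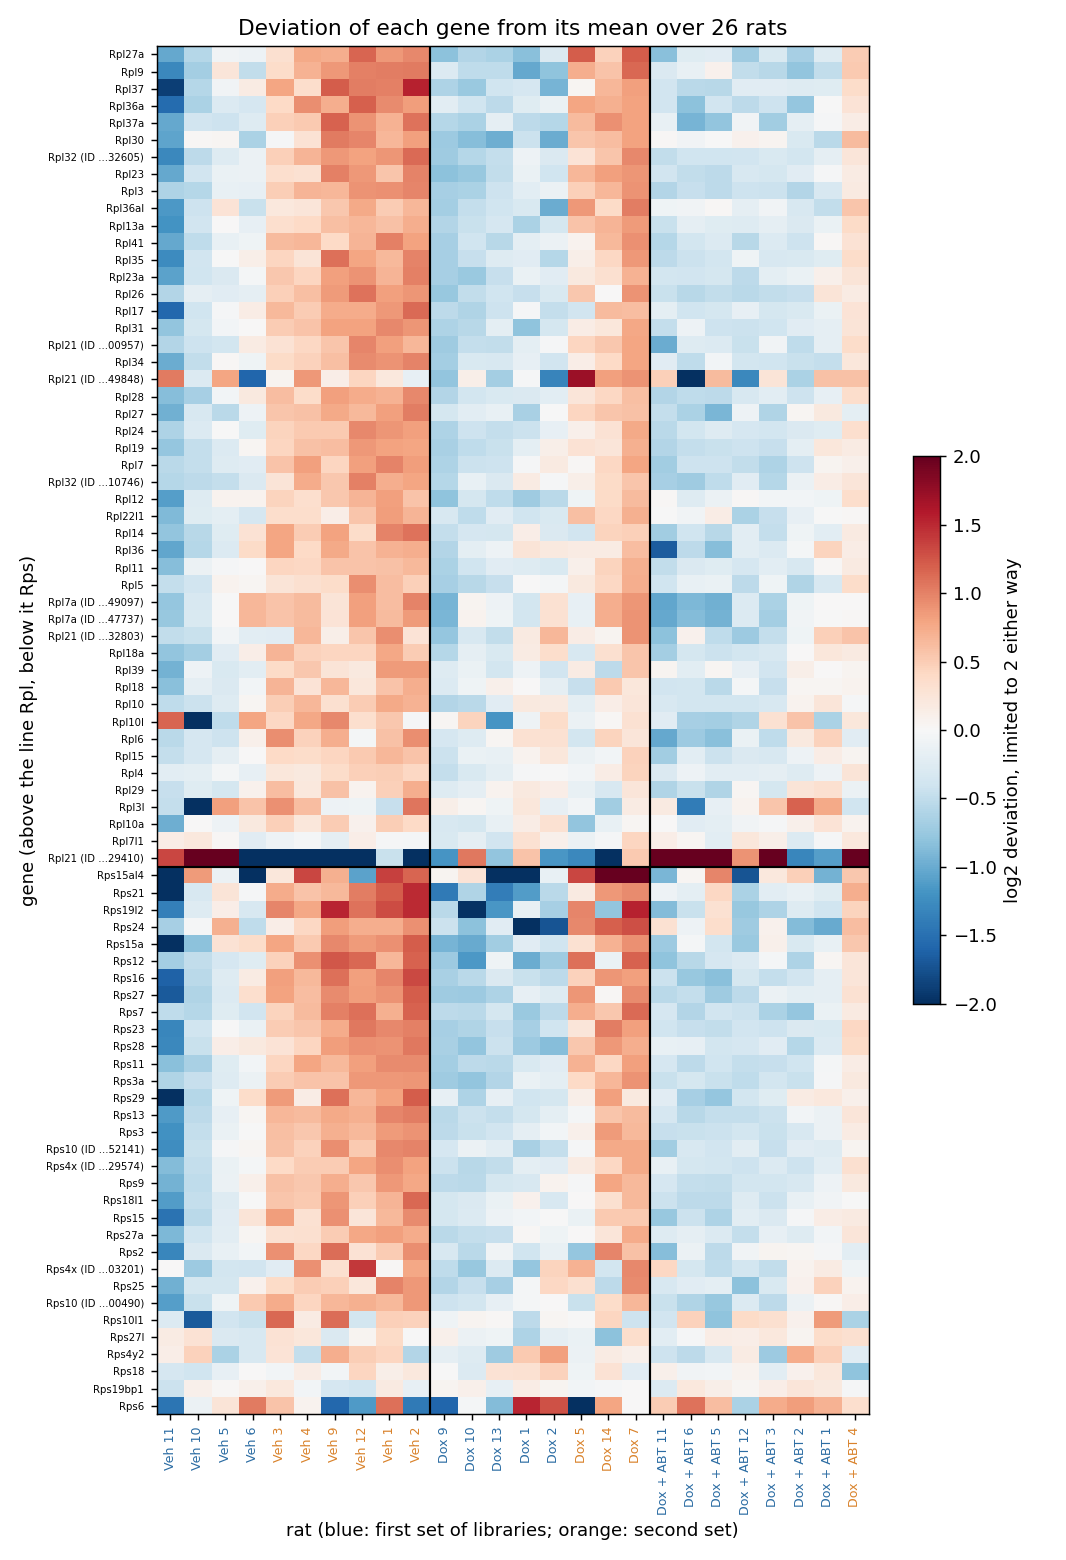
Each line is 1 of 80 of the genes (Rpl above the black line, Rps below it, each ordered by the difference between the sets) and each column 1 rat, ordered within its group by the members' median deviation, and the colour gives the log2 deviation from the gene's mean, limited to 2 either way. Many columns are largely red or largely blue, and the members' median deviation is most extreme in Veh rats 2 and 11. Rps6 and the Rpl21 gene ID ENSRNOG00000029410 follow patterns of their own.

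Ribosomal protein genes were on balance lower in Dox than in Veh, but none passed the test. The test was limma's moderated test on log2(normalized count + 1) with all 26 rats, two-sided, with an unadjusted p under 0.01 as the call and Benjamini-Hochberg adjustment over all 15595 genes. Of the 83 members 78 were lower in Dox, and the median log2 difference was -0.28 for Rpl and -0.32 for Rps symbols, against 0.0050 over all genes. The calls were 0 lower members, where 1.85% of all genes were called lower, and 0 higher members, where 1.02% were called higher. At an unadjusted p under 0.05 there were 5 members, all lower (Rpl31, Rpl12, Rps19l2, Rpl26 and Rpl24), and the smallest adjusted p of any member was 0.439. The count of lower calls was 11 without Veh rat 11, where 2.81% of all genes were called lower, and 5 without Dox rat 7, where 2.46% were.

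Rpl31 (ENSRNOG00000013508), a protein at the exit of the tunnel for the growing chain, had the smallest p of the members in this comparison. Its lowest, median and highest values were 652, 1632 and 2193 normalized counts in Veh and 644, 926 and 1916 in Dox. In Dox, 7 of 8 rats lay below the Veh median, yet the ranges were almost the same. The log2 difference was -0.51 (SE 0.21, limma p = 0.0246, adjusted p = 0.439). Rpl12, part of the stalk base where elongation factors bind, had 200, 567 and 760 in Veh and 245, 320 and 666 in Dox (log2 difference -0.46, SE 0.20, limma p = 0.0308, adjusted p = 0.451). After Rps19l2, the small subunit members with the smallest p were Rps21 and Rps12, with log2 differences of -0.73 and -0.57. Among the cell type markers, 4 of 6 microglial, 3 of 5 astrocyte and 2 of 6 oligodendrocyte genes were called lower in Dox than in Veh. Of all genes 1.85% were called lower there. All 6 red cell markers tested were higher in Dox, with a median of 1.04 and 0 called. With the set of libraries as a term all 6 were called higher, with a median of 1.55, where 1.07% of all genes were. The Dox rats were widely spread for these markers. In Dox, Hba-a1 ran from 1121 over 4939 to 38215 normalized counts and Slc4a1 from 2.15 over 11.4 to 1286. The part of these cells in the members' differences was not tested.

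In Dox + ABT, 12 of the 83 members were called lower than in Veh, against 3.95% of all genes. These were 9 Rpl and 3 Rps gene IDs, among them both IDs of Rpl7a, Rpl7, Rpl3, Rpl26, Rpl14, Rpl15, Rpl24, Rpl6 and the Rps10 ID ENSRNOG00000000490. A single member was called higher, the Rpl21 ID ENSRNOG00000029410, where 3.89% of all genes were called higher. Of the 83 members 76 were lower in Dox + ABT, with a median log2 difference of -0.51 for Rpl and for Rps symbols alike, against -0.00086 over all genes. No member had an adjusted p under 0.05 (smallest 0.109), and 47 had an unadjusted p under 0.05. Dox and Dox + ABT were compared with the same Veh rats, so their differences from Veh are not independent of each other. All 6 microglial markers were lower in Dox + ABT than in Veh, with a median log2 difference of -0.31, and Csf1r was called (-0.48, limma p = 0.00199, adjusted p = 0.109). Of the 5 astrocyte markers 3 were higher and 2 lower, with a median of 0.02 and Aldh1l1 called lower (-0.47), and of the 6 granule cell markers tested 3 were higher and 3 lower, with C1ql2 called lower (-0.46). The part of these cells in the members' differences was not tested.

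Rpl3 (ENSRNOG00000016896), a protein close to the peptidyl transferase centre, had the highest mean of the members. Its lowest, median and highest values were 6653, 15264 and 20049 normalized counts in Veh, 6424, 9152 and 19097 in Dox and 6830, 7519 and 11548 in Dox + ABT. The Dox + ABT rats, all below the Veh median, sat at the level of the 4 lowest Veh rats, and only Dox + ABT rat 4 stood higher. The log2 difference from Veh was -0.70 (SE 0.23, limma p = 0.00519, adjusted p = 0.114). Rpl7 (ENSRNOG00000006992), a large subunit protein, had 2792, 5724 and 8044 in Veh and 2493, 3022 and 4329 in Dox + ABT, a log2 difference of -0.66 (SE 0.21, limma p = 0.00421, adjusted p = 0.113).

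The Rpl gene IDs called lower had log2 differences from -0.83 for the Rpl7a ID ENSRNOG00000049097 to -0.43 for Rpl15. Rpl26, which binds the p53 messenger, had 935, 2045 and 2989 normalized counts in Veh and 963, 1015 and 1682 in Dox + ABT (log2 difference -0.67, SE 0.22, limma p = 0.00557, adjusted p = 0.115). Both IDs of Rpl7a held nearly the same values, with a ratio between 0.907 and 1.02 in every rat, so they cannot be counted as separate evidence. The first, ENSRNOG00000047737, had 103, 267 and 318 in Veh and 85.7, 127 and 178 in Dox + ABT (log2 difference -0.82, SE 0.23, limma p = 0.00143, adjusted p = 0.109). Rpl24, which forms a bridge between the subunits, differed by -0.56 and Rpl6 by -0.59. Rps10, a protein that is marked with ubiquitin on colliding ribosomes, differed by -0.62 for ENSRNOG00000000490 and by -0.59 for ENSRNOG00000052141, of which the first was called. Rps7 differed by -0.73 with p = 0.0106 in limma's test and was not called.

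The call count in Dox + ABT rested on single rats. It was 3 without Veh rat 1 or Veh rat 2, 4 without Veh rat 9, and 5 without Veh rat 3, 4 or 12. It was 20 without Veh rat 5, 31 without Veh rat 10 and 56 without Veh rat 11, where 5.01%, 6.21% and 7.56% of all genes were called lower. Without Veh rat 10, 5 lower members had an adjusted p under 0.05 in limma's test, and without Veh rat 11 there were 38. Among the Dox + ABT rats it was 19 without rat 4, 4 without rat 3, 5 or 6, 2 without rat 11 and 6 without rat 12. Over all settings that left out 1 rat, the share of all genes called lower ran from 2.24% to 7.56%. The direction of the median stayed negative each time, between -0.64 and -0.43 for Rpl and between -0.69 and -0.43 for Rps symbols.

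No member was called between Dox and Dox + ABT in the model of groups alone. The calls were 0 members higher in Dox, against 2.32% of all genes, and 0 lower, against 1.71%, with 3 members at an unadjusted p under 0.05 in limma's test and a smallest adjusted p of 0.271. Of the 83 members 69 were higher in Dox, with medians of 0.19 for Rpl and 0.17 for Rps symbols, against -0.0014 over all genes. This direction turned with the set of libraries as a term, described next, where 35 were higher and 48 lower in Dox, with medians of -0.02 and -0.06. Within the first set alone 29 were higher and 54 lower, with medians of -0.05 and -0.08. Both fits take out or limit part of the members' own level, as described next. These fits called 3 members lower in Dox (Rpl30, Rpl12 and Rps21), where 318 of all 15595 genes were, and 2 (Rpl30 and Rpl12), where 561 were. For Rpl7a (ENSRNOG00000047737) the Dox rats held 92.3, 175 and 328 normalized counts, and the log2 difference was 0.54 (SE 0.24, limma p = 0.0351, adjusted p = 0.354). Both Rpl7a IDs were called higher in Dox without Dox rat 9, the 2 calls of that setting, where 406 of all 15595 genes were called higher. The Rpl21 ID ENSRNOG00000029410 was called lower in Dox, 1 call, without Veh rat 5, Veh rat 10, Dox rat 10, Dox + ABT rat 1 or Dox + ABT rat 2, settings with between 234 and 270 of all genes called lower.

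The group differences and the sets of libraries were then put into 1 model. The sets divide the rats by the members' own median without overlap. The term therefore takes out part of the members' level itself, and calls lost with it do not show that the groups are alike. With the set as a term, 0 members were called lower in Dox than in Veh, where 1.63% of all genes were, and 0 in Dox + ABT than in Veh, where 0.731% were. The medians were -0.10 for Rpl and -0.11 for Rps symbols in Dox, and -0.08 and -0.07 in Dox + ABT. At an unadjusted p under 0.05, limma's test gave 4 and 3 members. Rpl3 differed by -0.21 between Dox + ABT and Veh in this model (limma p = 0.0549) and Rpl7 by -0.26 (limma p = 0.0652). At an unadjusted p under 0.05 in Dox + ABT were both Rpl7a IDs, with differences of -0.49 and -0.50, and the Rpl21 ID ENSRNOG00000029410.

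The first set holds the 16 rats with the lowest median of the members (-0.91 to -0.015, against 0.14 to 0.88 in the second). Comparing groups within either set limits the members' own level, so it cannot decide whether the groups differ. Within the 16 libraries of the first set alone, the medians turned above 0. There 46 of the 83 were higher in Dox than in Veh (medians 0.0094 for Rpl and 0.06 for Rps symbols), and 57 were higher in Dox + ABT than in Veh (0.05 and 0.09), with 0 called in either comparison. Of all genes 2.42% were called higher and 2.33% lower in Dox there, and 0.603% and 0.50% in Dox + ABT. The members summed to 134181 ± 34957 (SD, n = 4) for the Veh rats, to 136235 ± 16613 (SD, n = 5) for Dox rats and to 136408 ± 14193 (SD, n = 7) for Dox + ABT rats. Rpl3 had means of 7986, 7809 and 7388 normalized counts there, and its values ran from 6424 to 9466 in all 16 libraries. Within the 10 libraries of the second set only Dox (n = 3) and Veh (n = 6) could be compared: 71 of the 83 members were lower in Dox, the medians were -0.25 and -0.23, and Rpl10a, Rpl29 and Rpl10 were called lower and Rps24 higher, where 1.89% of all genes were called lower and 1.67% higher. The share of second-set libraries was 6 of 10 in Veh, 3 of 8 in Dox and 1 of 8 in Dox + ABT. Group and set are thus partly confounded, and their parts in these differences cannot be told apart fully. The scores were taken from each group's own mean, so a set need not mark the same kind of library in every group.

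**Figure D3:**
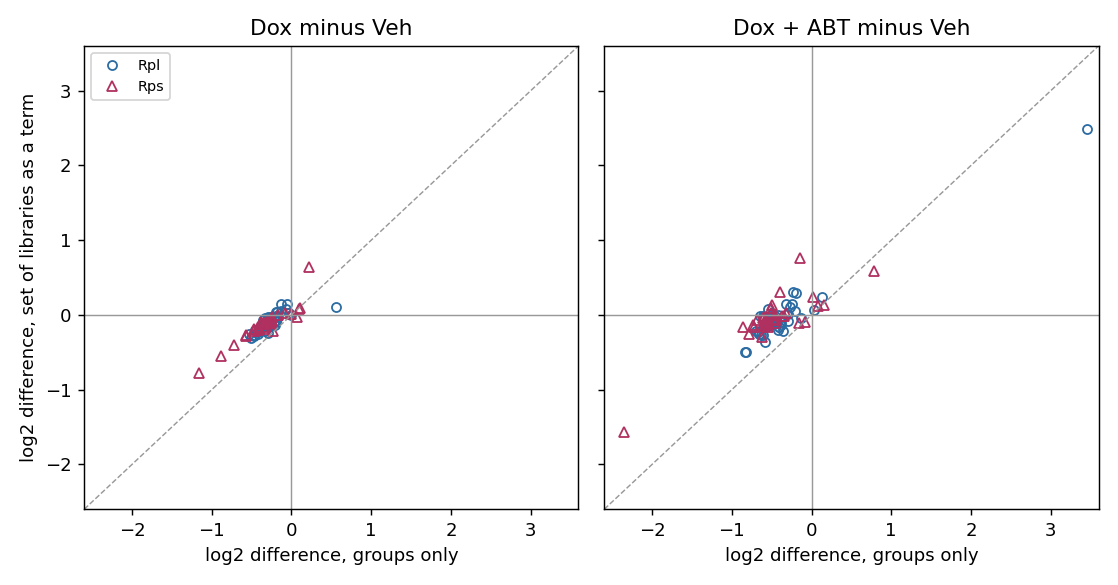
Each point is 1 of the 83 genes, with the log2 difference from Veh in the model of groups alone on the x axis and in the model with the set of libraries as a term on the y axis, for Dox (left) and Dox + ABT (right), and the dashed line marks equal values. Most genes lie left of 0 on the x axis (medians -0.28 and -0.32 for Dox, -0.51 and -0.51 for Dox + ABT) and close to 0 on the y axis.

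Setting the lowest Veh rats apart moved the counts the other way. The largest single gap on the leading axis lay before Veh rats 10 and 11, the 2 Veh rats with the lowest members. With these 2 rats given their own term, 36 members were called lower in Dox than in Veh, against 5.01% of all genes, and 60 in Dox + ABT than in Veh, against 10.8%. The medians were then -0.49 and -0.59 in Dox and -0.74 and -0.80 in Dox + ABT for Rpl and Rps symbols, and 8 and 60 members had an adjusted p under 0.05 in limma's test. Across these models, the lower calls in Dox + ABT ranged from 0 to 60 of the 83 members.

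Of 11 members named for a known role of their own, 9 were lower in both treated groups with no call in the model of groups alone. The other two were Rpl26, called lower in Dox + ABT as given above, and Rps6, which was higher there and is described below. Rpl5 and Rpl11, the pair that binds Mdm2, differed between Dox + ABT and Veh by -0.45 and -0.43 and between Dox and Veh by -0.27 and -0.30, none of them called. Rpl5 held 2356, 4017 and 6236 normalized counts in Veh and 2172, 2793 and 4259 in Dox + ABT. Rpl23, which also binds Mdm2, differed by -0.51 and -0.27 in the same order. For Rpl10, which joins late in assembly, the values were -0.41 and -0.33, and for Rps27a, made as a fusion with ubiquitin, they were -0.37 and -0.27. Rps3, at the entry of the messenger and also active in DNA repair, differed by -0.54 and -0.24. Rps25, needed for some kinds of initiation within a messenger, differed by -0.34 and -0.26. Rpl39 and Rpl41, both very short proteins of the large subunit, differed by -0.21 and -0.51 in Dox + ABT and by -0.28 and -0.28 in Dox.

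Some members did not take part in the common shift between the sets. The signed difference, second minus first set, was under 0.2 for 7 members: Rpl7l1, Rps18, Rps19bp1, Rps4y2, Rps27l, Rps6 and the Rpl21 ID ENSRNOG00000029410. Of these symbols, 6 have a promoter entry and no ID outside this range. The pyrimidine run stood at the start of 2 of the 6, against 32 of 46 such symbols among members over 0.5. The hexamer TTCCGG went the other way, in 4 of the 6 and 22 of the 46. From 0.2 to 0.5, the run stood in 3 of 5 symbols and the hexamer in 2. The classes were drawn from these same data, and the contrasts were not tested. Rps18 (ENSRNOG00000028505) varied little, with 199, 259 and 355 normalized counts in Veh, 218, 291 and 360 in Dox and 149, 263 and 305 in Dox + ABT. The gene ID named Rps18l1 (ENSRNOG00000033152) had 3250, 9942 and 15587 in Veh and 4897, 5536 and 6967 in Dox + ABT and followed the common shift, by 0.80. Whether reads were split between these IDs was not tested, so their separate levels are uncertain. Rps19bp1, the member that is no ribosomal protein, had 254, 339 and 396 in Veh and 286, 375 and 406 in Dox + ABT (log2 difference 0.16, SE 0.09, limma p = 0.0931, adjusted p = 0.299).

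Rps6 (ENSRNOG00000049025), the substrate of the S6 kinases downstream of mTOR, ran against most other members. Its values were 185, 542 and 1176 normalized counts in Veh, 88.4, 544 and 1587 in Dox and 353, 865 and 1171 in Dox + ABT. All 3 groups overlapped, and 7 of 8 Dox + ABT rats lay above the Veh median. The log2 difference between Dox + ABT and Veh was 0.79 (SE 0.46, limma p = 0.0974, adjusted p = 0.306), and between the sets of libraries it was -0.43.

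The Rpl21 ID ENSRNOG00000029410 was the member called higher in Dox + ABT. It held 0.191, 1.57 and 229 normalized counts in Veh, 1.11, 8.44 and 37.2 in Dox and 6.48, 144 and 690 in Dox + ABT. In Veh, 3 of the 4 rats of the first set had higher values than all 6 of the second, and 2 Dox + ABT rats exceeded every Veh rat. The log2 difference was 3.45 (SE 1.03, limma p = 0.00233, adjusted p = 0.109), and it was 2.49 with the set as a term (limma p = 0.0228) and 0.88 within the first set, neither of them called. The main Rpl21 ID (ENSRNOG00000000957) took 69.6% of the counts under this symbol and this one 3.92%. The main ID differed by -0.55 between Dox + ABT and Veh (limma p = 0.0184, adjusted p = 0.15), opposite in sign.

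Rps15al4, a copy of Rps15a, was widely spread, with 53.2, 444 and 814 normalized counts in Veh, 53.7, 354 and 1629 in Dox and 94.2, 343 and 620 in Dox + ABT. It differed by 1.92 between the sets, while Rps15a itself, with 329, 2139 and 3128 in Veh, differed by 1.28.

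**Figure D4:**
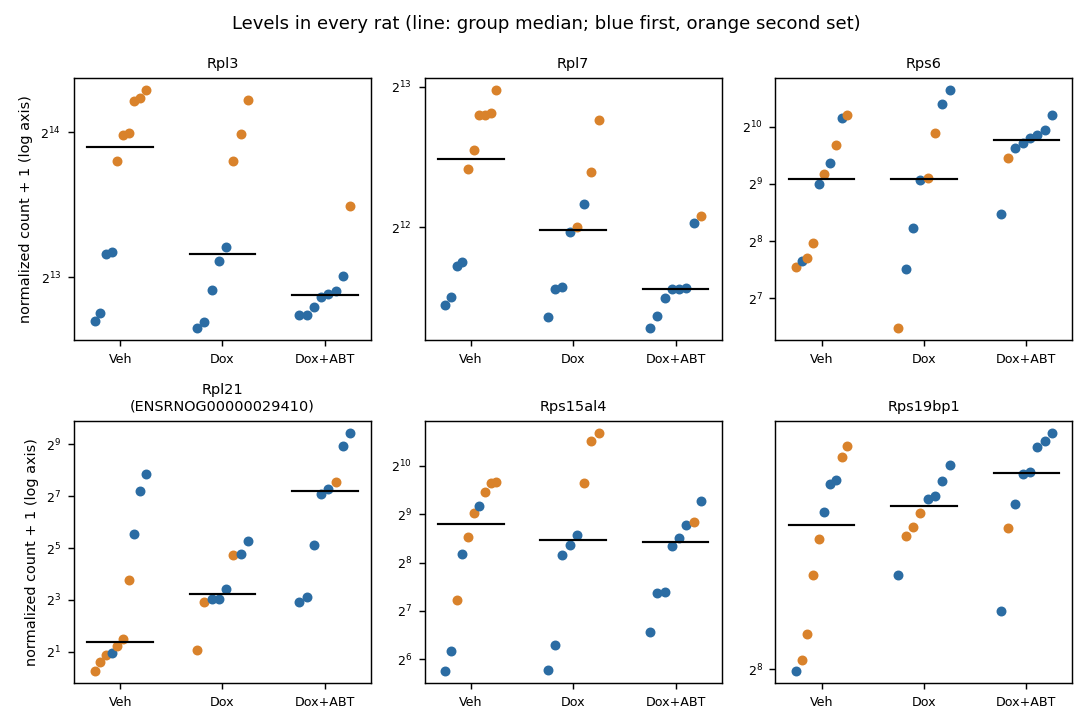
Each point is 1 rat, with the normalized count + 1 on a log axis, the group on the x axis and the group median as a line (blue first set, orange second set of libraries). For Rpl3 the orange points lie above the blue ones within each group, while Rps6, the Rpl21 ID and Rps15al4 are scattered over a wide range and Rps19bp1 stays between 254 and 406 in all rats.

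The paralogs, genes that resemble a standard member, were measured beside it, and none was called in the model of groups alone. Rpl3l, the muscle form of Rpl3, ran from 0 to 19.3 normalized counts, and Rpl10l, the testis form of Rpl10, from 1.49 to 31.2, both near the lower limit of what was tested. Rpl22l1 held 217, 477 and 719 in Veh and 260, 393 and 447 in Dox + ABT, a log2 difference of -0.27 (SE 0.20, limma p = 0.19, adjusted p = 0.429). Rpl36al, an intronless copy of Rpl36a, differed by -0.20 and Rpl36a by -0.61 between Dox + ABT and Veh. Rpl7l1 stayed between 197 and 348 in all rats and differed by 0.03, while Rpl7 differed by -0.66. Rps27l, a target of p53, held 44.2, 60.2 and 72.6 in Veh, 30.9, 51.1 and 71.2 in Dox and 48.0, 61.6 and 71.9 in Dox + ABT. It differed by -0.31 between Dox and Dox + ABT (SE 0.15, limma p = 0.0505, adjusted p = 0.396), while Rps27 differed by 0.22. Under 5 symbols there are 12 member IDs. Their sequences were not compared, and reads may be split between IDs of 1 symbol. The main ID took 91.7% of the counts of Rpl32 and 98.9% of Rps4x, while Rps10 was divided into 53.0% and 47.0%. Rps4y2 differed by -0.15 and Rps10l1 by 0.02 between Dox + ABT and Veh.

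The spread between rats was widest in Veh and narrowest in Dox + ABT. Over the 10 or 8 rats of a group, the median SD of the members' log2 levels was 0.66 for Veh rats, 0.52 for Dox rats and 0.31 for Dox + ABT rats, against 0.31, 0.31 and 0.24 over all tested genes. The SD was smaller in Dox + ABT than in Veh for 76 of the 83 members, and for 67.9% of all genes. Rpl37 (ENSRNOG00000034180) had an SD of 1.02 in Veh, with values from 822 to 8874 normalized counts, and of 0.29 in Dox + ABT, with values from 2080 to 3929. Rpl4 and Rpl7l1 had the smallest spread within groups of the Rpl symbols, and Rps19bp1 and Rps18 of the Rps symbols.

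The spread was tested with limma on the absolute deviation of each log2 value from its group median. Between Dox + ABT and Veh 2 members were called, Rpl37 and the main Rpl32 ID, both narrower in Dox + ABT (limma p = 0.00887 and 0.00981, adjusted p = 0.787 for both), against 1.03% of all genes. The count was 9 without Dox + ABT rat 4, the 1 library of that group from the second set, where 203 of all 15595 genes were called for spread. Over all settings that left out 1 rat, between 58 and 203 genes were. It was 1 without Veh rat 2, Dox rat 2, 9 or 13 or Dox + ABT rat 3. It was 0 without Veh rat 5, 6, 10 or 11, Dox rat 1 or 5, or Dox + ABT rat 1, 2, 5, 6, 11 or 12. Between Dox and Veh 0 members were called, against 1.49% of all genes, and between Dox and Dox + ABT 0, against 1.34%, with 5 and 7 members at an unadjusted p under 0.05 in limma's test. In Dox the SD was smaller than in Veh for 59 members and 48.9% of all genes, and larger than in Dox + ABT for 70 members and 67.8% of all genes. The second set gave 6 of 10 libraries in Veh, 3 of 8 in Dox and 1 of 8 in Dox + ABT. Within the first set alone, 7 members were called narrower in Dox than in Veh, against 0.705% of all genes. In Dox + ABT 10 were, against 0.795%. The smallest adjusted p in limma's test was 0.688 for Dox and 0.515 for Dox + ABT. That set holds the rats with the lowest members, so these calls describe that part of the range only.

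**Figure D5:**
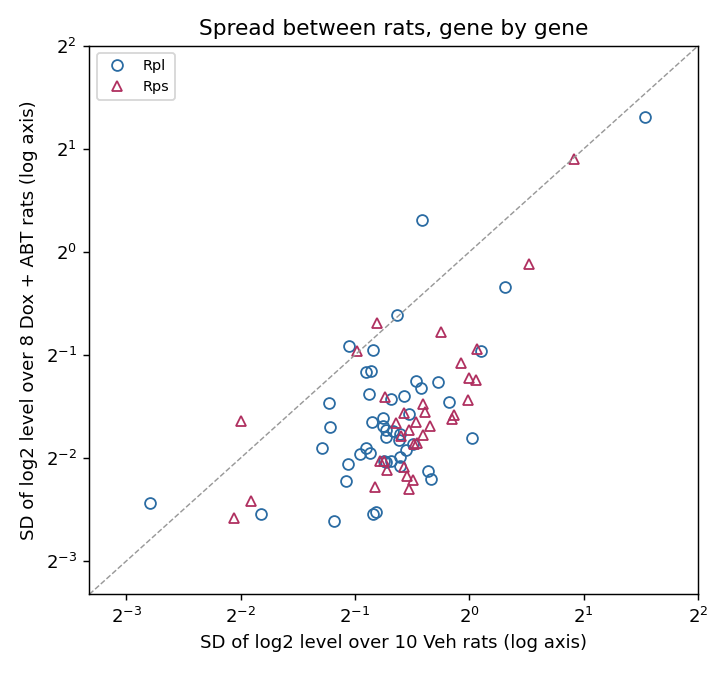
Each point is 1 of the 83 genes, with the SD of its log2 level over the 10 Veh rats on the x axis and over the 8 Dox + ABT rats on the y axis (both log axes), and the dashed line marks equal values. Of the 83 points 76 lie below the line.

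Genes that work with the ribosomal proteins were taken from lists made for this work. The ribosomal proteins outside the naming rule moved with the members: all 7, among them Rplp0, Rplp1, Rplp2, Rpsa, Fau and Rack1, were lower in both treated groups than in Veh, with medians of -0.24 in Dox and -0.45 in Dox + ABT. Of them 2 were called lower in Dox + ABT, where 3.95% of all genes were. These were Rpsa (log2 difference -0.73, SE 0.24, limma p = 0.00522, adjusted p = 0.114) and Rplp0, the base of the stalk (-0.63, SE 0.21, limma p = 0.00679, adjusted p = 0.118). With the set as a term 0 were called. Translation factors and other genes known for a TOP tract behaved likewise, with 16 of 20 lower in each treated group. The medians were -0.15 in Dox and -0.36 in Dox + ABT. In Dox + ABT 4 of the 20 were called lower, against the same 3.95% of all genes. The elongation factors Eef2 (-0.44, SE 0.13, limma p = 0.00189, adjusted p = 0.109) and Eef1a1 (-0.53, SE 0.17, limma p = 0.00325, adjusted p = 0.11) were among the called ones, and again 0 were called with the set as a term. Short nuclear genes of the respiratory chain were lower in 48 of 51 in Dox and 44 of 51 in Dox + ABT, with medians of -0.13 and -0.23, and 3 of 51 were called lower in Dox + ABT, against the 3.95% of all genes given above. With the set as a term 0 were called there, and the median was -0.02.

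Genes that build ribosomes had medians near 0. Of 48 measured assembly genes 29 were higher in Dox than in Veh and 22 in Dox + ABT, with medians of 0.04 and -0.04. A single one was called in Dox, where 1.02% of all genes were called higher and 1.85% lower, the AAA protein Nvl (0.45 higher, SE 0.14, limma p = 0.00394, adjusted p = 0.268), and in Dox + ABT Noc2l rose by 0.47 and Pes1 fell by 0.40 on the log2 scale, 2 of 48 calls where 3.89% of all genes were called higher and 3.95% lower. With the set as a term 1 was called in Dox and 0 in Dox + ABT. In that model 39 of the 48 were higher in Dox and 30 in Dox + ABT, with medians of 0.08 and 0.04. Of 17 measured regulators of TOP messengers 0 were called in Dox. In Dox + ABT 2 were called lower and 2 higher, against 3.95% and 3.89% of all genes. Eif4ebp1, the translational repressor that mTOR phosphorylates, held 109, 157 and 187 normalized counts in Veh, 99.7, 113 and 197 in Dox and 66.1, 81.3 and 141 in Dox + ABT. It fell by 0.72 on the log2 scale from Veh to Dox + ABT (SE 0.15, limma p = 5.28e-05, adjusted p = 0.108). With the set as a term 2 regulators were called lower and 0 higher in Dox + ABT, against 0.731% and 0.641% of all genes. Of 10 measured genes of the p53 axis 2 were called higher in Dox, against the 1.02% of all genes, Cdkn1a (1.2, SE 0.36, limma p = 0.0027, adjusted p = 0.242) and Heatr3, which carries Rpl5 into the nucleus (0.35, SE 0.12, limma p = 0.00757, adjusted p = 0.317). Cdkn1a held 30.8, 55.4 and 91.0 normalized counts in Veh, 62.2, 79.6 and 530 in Dox and 33.5, 65.0 and 80.7 in Dox + ABT, so its groups overlapped. Heatr3 was called higher in Dox + ABT too (0.41, SE 0.12, limma p = 0.00201, adjusted p = 0.109). Of 12 measured genes for stalled ribosomes 1 was called in Dox, again against 1.02% of all genes called higher, Eif2ak4 (0.40 higher, SE 0.12, limma p = 0.00205, adjusted p = 0.213), and 2 in Dox + ABT, both higher, against 3.89% of all genes. With the set as a term these counts were 1 and 0. In that model 1 gene of the p53 axis was called higher in Dox and 0 in Dox + ABT.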

How the data were processed

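Polyadenylated RNA of the DG of 26 rats was sequenced on an Ion Torrent platform, and per the submitters' processing notes reads were aligned to rn6 with STAR 2.5.3a in Partek Flow. The deposited values are normalized counts, a signal per transcript row that the authors obtained by dividing read counts by a median ratio factor per library, and DESeq2 is named as the authors' tool. The rows were summed by gene ID, and 15595 IDs with a mean of at least 5 were tested with limma 3.58.1 in R 4.3.3 on log2(value + 1), over all 26 rats with no covariate. Values were prepared with Python 3.11.15, pandas 2.3.3 and numpy 2.4.6, and plots drawn with matplotlib 3.10.9. Groups were taken from the labels.

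The members and lists were chosen with earlier results of these data known. Named were the members with the smallest p per comparison and subunit, those with the largest and smallest spread, the paralogs with their standard gene, and members with a known role outside the ribosome. The part of that rule on level per kilobase was not applied, since transcript lengths of the build were not used here, and Rpl14 and Rpl15 were named after their values were seen. The planned split of libraries at the largest gap set apart only 2 Veh rats, so the split into 16 and 10 libraries was added after seeing the data. In simulated data for Dox with Veh (15595 genes, 200 of them changed), the level test recovered 87.5% of the changed genes with 1.05% false calls. The spread test recovered 59.5% with 0.513% there. Whether these rates hold for the members, most of which varied together from rat to rat, was not tested. Rats of different groups that share a number were checked for pairing: over 16 pairs the correlation of their deviations ran from -0.22 to 0.44 and was over 0.1 in 6, so the numbers were not taken as pairs. Results for some genes are not reported here. Depth was estimated from the value of 1 read, and the deposited values are not raw counts, so no count model was used.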

Additional observations from a re-analysis of the deposited data

Results flagged for a closer look

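Of 132 groups of values examined for the named members reported here, 8 held a rat whose gap to its nearest neighbour was large against the group's range, and chance alone flags about 1 in 20 groups. In Dox + ABT rat 4, the 1 library of that group in the second set, 7 large subunit members stood above the others: Rpl3 at 11548 normalized counts (nearest rat 8226), Rpl4 at 8046 (6305), Rpl5 at 4259 (3114), Rpl12 at 548 (440), Rpl24 at 1416 (947), Rpl31 at 1342 (1039.5) and Rpl36al at 764 (532). Rpl10l stood low in Dox rat 13 at 5.36 (12.3).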

How the results depend on the processing

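The median differences of the members kept their sign when any 1 rat was left out: for Dox against Veh from -0.41 to -0.20 (Rpl) and -0.47 to -0.25 (Rps), for Dox + ABT against Veh from -0.64 to -0.43 and -0.69 to -0.43, and for Dox against Dox + ABT from 0.09 to 0.27 and 0.08 to 0.24. Over the same 26 settings the lower calls ran from 0 to 11 in Dox and from 2 to 56 in Dox + ABT against Veh, the spread calls from 0 to 1 and 0 to 9, and the calls between Dox and Dox + ABT from 0 to 2 higher and 0 to 1 lower.

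With the rat number as a replicate block, lower calls against Veh were 10 in Dox and 35 in Dox + ABT (364 and 702 of all 15595 genes), and spread calls were 4 in Dox against Veh, 1 in Dox + ABT against Veh and 2 in Dox against Dox + ABT (377, 122 and 434 of all genes), but the numbers mark no known pairs. Weights per library gave 66 lower calls in either comparison with Veh, where 1708 (Dox) and 2872 (Dox + ABT) of all 15595 genes were called lower, with 66 and 68 lower members at an adjusted p under 0.05 in limma's test and medians of -0.70 (Rpl) and -0.76 (Rps) in Dox; between Dox and Dox + ABT they gave 1 lower and 1 spread call. With Veh rats 10 and 11 given a term, lower calls were 36 and 60, and without both rats 38 and 61, with 1 lower in Dox than in Dox + ABT and 0 spread calls in Dox + ABT against Veh in both settings. With the set of libraries as a term, Dox + ABT had 0 lower and 0 higher calls against Veh, Dox had 1 and Dox + ABT 3 spread calls against Veh, and 3 members were lower in Dox than in Dox + ABT (Rpl30, Rpl12 and Rps21), with medians of -0.02 and -0.06, opposite in sign to the model of groups alone. Within the 16 libraries of the first set, Dox + ABT had 0 lower and 0 higher calls against Veh with medians of 0.0526 (Rpl) and 0.0894 (Rps), spread calls were 7 and 10 for Dox and Dox + ABT against Veh, and 2 members were lower in Dox than in Dox + ABT, with medians of -0.05 and -0.08. Within the 10 libraries of the second set Dox had 1 higher and 3 lower calls against Veh, and no comparison with its 1 Dox + ABT library was made. Among smaller choices, spread calls in Dox + ABT against Veh were 1 with a pseudocount of 0.5 or on transcript rows and 0 with no filter or a minimum mean of 20, and 1 member was lower in Dox than in Dox + ABT with a pseudocount of 5 or with those 2 groups fitted alone. The causes were not tested. No called value of a named member changed sign. Low members such as Rpl3l and Rpl10l are limited by depth.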
